A study of Ambystoma mexicanum with 9 samples.

Results

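Spinal cord tissue of the axolotl 1 day after injury (1dpi, 3 arrays) was compared with uninjured spinal cord tissue (0dpi, 3 arrays), which makes 6 of the 9 arrays of the series. The arrays were chosen by their titles, and all 20035 probe sets that are not controls of the manufacturer were compared. Each array held RNA pooled from the tissue of 10 animals of 2 to 3 cm, measured on an Affymetrix chip made for the axolotl, Ambystoma mexicanum. In the 1dpi animals the central canal of the cord was injected and a piece of the cord was cut out directly afterwards, and the tissue around the wound was taken the next day. The vehicle of that injection was water, marked with the dye Fast Green. The source label of the 1dpi arrays calls the injury a crush, whereas the protocol and the methods describe removal of a piece of cord. No injection or cut is described for the 0dpi animals, so the injury, the injection, the anaesthesia and the passage of 1 day cannot be told apart in this comparison. The third group of the series, 1dpi_IVM, had received ivermectin, which opens chloride channels of the glycine receptor family, and was taken 1 day after injury. It enters none of the tests given here, and only 1 of the alternative fits.

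The axolotl regrows its spinal cord after injury. Ependymoglial cells, the radial glia-like cells that line the central canal with motile cilia, divide after a lesion and rebuild the neural tube across the gap, and neurons then grow axons through it. In vertebrates, wounded tissue first switches on immediate early transcription factors such as FOS and EGR1, then inflammatory and clotting genes, and it draws in macrophages and neutrophils. Matrix proteins and the metalloproteases that remodel them follow, while the re-entry of cells into division usually comes later.

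The tissue cut for the arrays held more than cord. Skeletal muscle CKM, the muscle creatine kinase, had a mean log2 signal of 14.28 in 1dpi and 14.08 in 0dpi, and epithelial EPCAM, an adhesion molecule, had 12.89 in 1dpi and 12.89 in 0dpi. The labelled tissue was also present: the myelin protein MBP lay at 11.79 in 1dpi and 11.12 in 0dpi, and the glial filament GFAP at 10.59 and 9.97. Of 6 measured neuron markers, 5 were higher in 1dpi and SYT1 was below the brightest negative control in both groups. All 4 ependymoglia markers, all 6 muscle markers and both red cell markers were higher in 1dpi, and 2 of 3 epidermis markers, CDH1 and TP63, were lower. Of 3 cartilage markers 1 was higher, of 3 endothelium markers 1 was higher and 2 lower, and of 4 leukocyte markers 1 was higher and 1 lower. Among all genes 24.7% were higher and 28.5% lower. In bulk tissue of this kind, fewer cells of a type and less RNA per cell cannot be told apart. The part that the makeup of the tissue had in the results below was not tested.

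The 1dpi arrays stood apart from the other 6 arrays of the series. Across probe sets, none of them an independent replicate, 1dpi arrays correlated with each other at r = 0.998 to 0.999 and with 0dpi arrays at 0.971 to 0.972. Arrays of 1dpi_IVM, which were also taken after injury, correlated with 0dpi arrays at 0.996 to 0.997 and with 1dpi arrays at 0.967 to 0.968. Neither an exchange of samples nor separate processing of the 1dpi arrays was tested, and the injury cannot be told apart from either in the differences below. The 24 poly-A spike-in probe sets, which read bacterial RNAs mixed in before the labelling step, averaged 8.08 ± 0.04 in 1dpi and 7.54 ± 0.03 in 0dpi (SD, n = 3 arrays each), a difference of 0.55. The deposited values had been brought to 1 distribution, so every difference below is measured against the rest of an array, and an array scale set by the spike-ins would lower every difference by 0.55. As a result, a marker counted above, or a list or gene given below, as higher by less than 0.55 would have a difference below 0 on that scale. Some rises a little above 0.55 would not be called.

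Values are log2 signals from here on, and a difference is 1dpi minus 0dpi with its standard error. A gene was called higher or lower when its adjusted p in limma was below 0.05. The spread between arrays of a group was small, with a median SD over probe sets of 0.07 in each group, and most probe sets passed that threshold. Of the 20035 probe sets, 4820 were higher in 1dpi and 5553 lower, together 51.8%. In 59.4% of the probe sets the 3 values of 1dpi did not overlap the 3 of 0dpi. Among the 8639 genes with a symbol, each given by its brightest probe set, 24.7% were higher, 28.5% lower and 53.2% changed in either direction, with a median difference of 0.00. Large changes were rarer, since 278 genes (3.22%) were called and at least 2-fold higher and 228 (2.64%) called and at least 2-fold lower. A call alone therefore says little here, and the members of each gene group are read against these shares and by the size of their differences. With arrays centred on the spike-ins, 1283 probe sets would be higher and 16945 lower, so that 7.04% rather than 46.5% of the calls would be higher. With arrays centred on their medians, 5536 would be higher and 5019 lower.

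**Figure D1:**
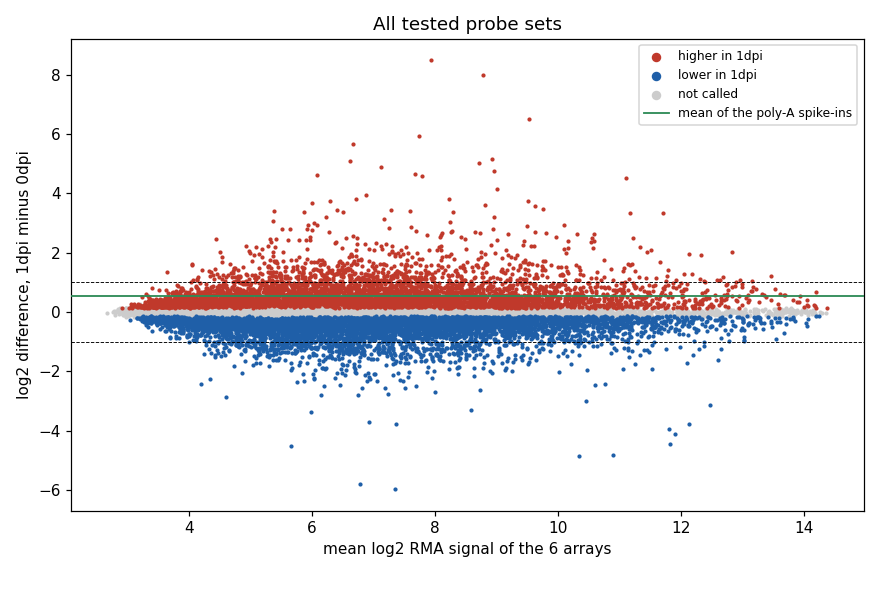
Each point is 1 of the 20035 probe sets, with its mean log2 signal over the 6 arrays on the horizontal axis and the log2 difference of 1dpi minus 0dpi on the vertical axis. Red points were higher and blue points lower in 1dpi at an adjusted p under 0.05, and dashed lines mark a 2-fold change. The green line at 0.55 marks the mean difference of the poly-A spike-ins. Points above it keep a difference above 0 when arrays are centred on the spike-ins, though some of them lose their call.

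The genes that rose most included ones known from muscle, from neural tissue and from connective tissue. TCEA2, a transcription elongation factor of the S-II family, had 8.84, 8.83 and 8.89 in the 1dpi arrays and 4.70, 4.81 and 5.22 in the 0dpi arrays. This was a rise of 3.94 ± 0.12, or 15.4-fold (adjusted p = 2.64e-07), and the highest 0dpi array lay 3.61 below the lowest 1dpi array. PMCH, the precursor of the neuropeptide melanin-concentrating hormone, measured 8.75, 8.61 and 8.49 in the 1dpi arrays and 4.88, 4.82 and 4.73 in the 0dpi arrays. It rose by 3.80 ± 0.08 (14-fold), and its groups were apart, as the rule for the 15 largest rises required. C1QTNF3, a secreted protein of the C1q and tumour necrosis factor family, gave 7.86, 7.84 and 7.80 in the 1dpi arrays and 4.20, 4.27 and 4.02 in the 0dpi arrays, a rise of 3.67 ± 0.07. CDH17, a cadherin known from the intestine, had 8.20, 8.20 and 8.20 in the 1dpi arrays and 4.83, 4.72 and 4.92 in the 0dpi arrays. Its 1dpi arrays agreed to within 0.01, and the rise was 3.37 ± 0.06 (10.4-fold). The other rises among the 15 largest were those of CDH13, a cadherin anchored to the membrane by a lipid (2.81), BCAN, or brevican, a proteoglycan of the neural matrix (2.73), P2RX5, an ion channel gated by ATP (2.53), CSRP2, a LIM domain protein of smooth muscle (2.52), and those of muscle, matrix and stress genes given with their groups below.

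The 15 largest falls included genes of serine synthesis and of cell division beside others. PSAT1, which makes phosphoserine on the way to serine, had 8.94, 9.00 and 8.92 in the 1dpi arrays and 11.96, 11.98 and 11.95 in the 0dpi arrays. The difference was -3.01 ± 0.05 (8.05-fold lower, adjusted p = 1.24e-08), the largest fall of any gene with a symbol, and the arrays of each group lay within 0.08 of each other. NCOA7, a nuclear receptor coactivator, measured 5.22, 5.40 and 5.45 in the 1dpi arrays and 8.16, 8.07 and 8.19 in the 0dpi arrays, which is a difference of -2.78 ± 0.07. ILF2, an RNA-binding protein of the nucleus, gave 5.83, 5.90 and 5.98 in the 1dpi arrays and 8.46, 8.49 and 8.49 in the 0dpi arrays, a difference of -2.57 ± 0.05. No array of 1dpi came within 2 log2 units of a 0dpi array for these 3 genes. Other falls of this size were those of S100Z, a calcium-binding protein (-2.20), EXOSC2, a subunit of the RNA-degrading exosome (-2.18), TMEM123, a transmembrane protein (-2.02), and KERA, or keratocan, a small matrix proteoglycan (-1.99).

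**Figure D2:**
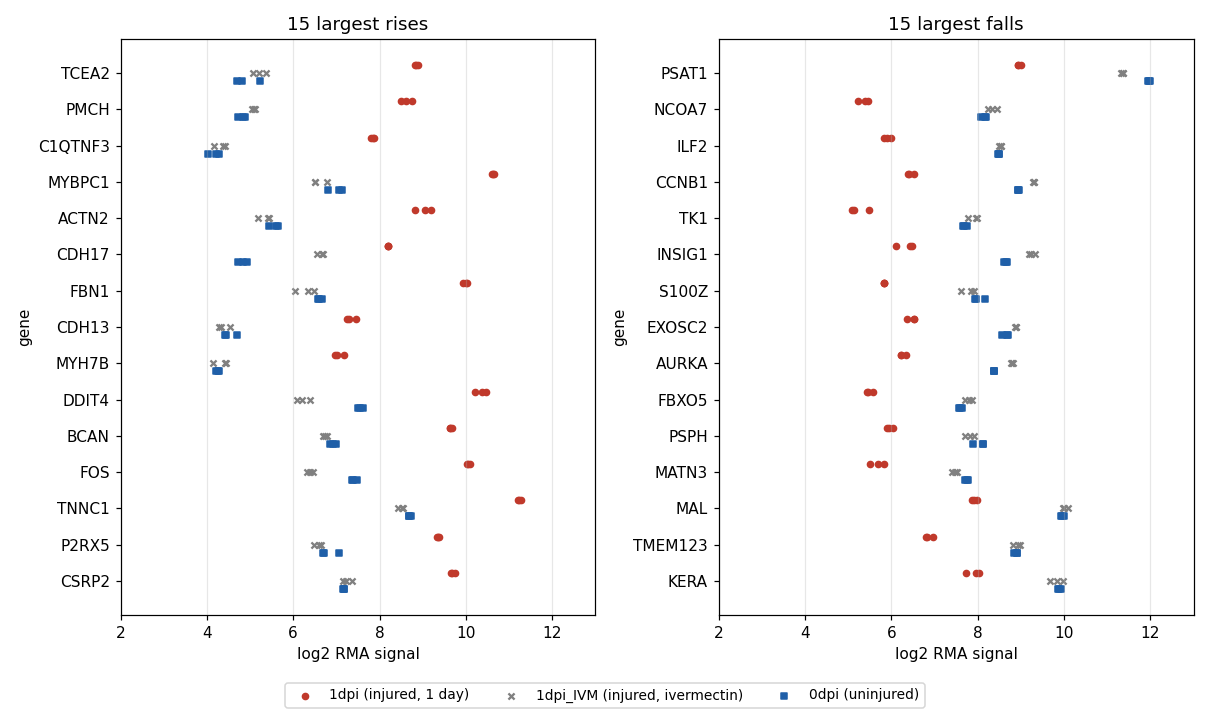
Log2 RMA signals of each array for the 15 genes with the largest rises (left) and the 15 with the largest falls (right), with red circles for 1dpi, grey crosses for 1dpi_IVM and blue squares for 0dpi. The 3 circles of a gene lie apart from its 3 squares in all 30 genes, because the rule that chose the genes required it. The crosses lie nearer to the squares than to the circles in 29 of the 30, the exception being CDH17.

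Muscle genes rose together. Of 39 measured skeletal muscle genes 38 were higher and 1, the transcription factor MEF2C, was lower (-0.18), with a median difference of 0.90, and 17 rose at least 2-fold. The call of MEF2C was lost when any array but 0dpi_1 was left out (-0.13 to -0.18) and with its probe sets averaged (0.01). With arrays centred on the spike-ins 24 stayed higher and 10 were lower, with a median of 0.35. MYBPC1, which binds myosin in slow fibres, had 10.62, 10.64 and 10.60 in the 1dpi arrays and 6.80, 7.06 and 7.13 in the 0dpi arrays, a rise of 3.63 ± 0.09 (12.3-fold, adjusted p = 8.4e-08). ACTN2, the actinin that cross-links thin filaments at the Z disc, measured 8.82, 9.19 and 9.06 in the 1dpi arrays and 5.45, 5.60 and 5.65 in the 0dpi arrays. Its rise of 3.46 ± 0.10 was 11-fold, and its lowest 1dpi array was 3.17 above its highest 0dpi array. MYH7B, a slow-type myosin heavy chain outside the list, gave 7.02, 7.17 and 6.97 in the 1dpi arrays and 4.25, 4.20 and 4.29 in the 0dpi arrays and rose by 2.81 ± 0.06. The troponin subunits of slow muscle moved by nearly equal amounts: TNNC1, which binds calcium, rose by 2.53 ± 0.05, TNNI1 by 2.50 ± 0.05 and TNNT1 by 2.37 ± 0.05. Slow myosin light chains did the same, MYL3 by 2.49 ± 0.05 and MYL2 by 2.21 ± 0.05.

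Several fast muscle genes lay near the highest value of the 6 arrays, 14.55, and their differences were small. The fast troponins TNNC2 and TNNT3 rose by 0.33 and 0.69, the fast light chain MYL1 by 0.12 and CKM by 0.20, all with signals above 12 in 0dpi, and TNNC2, MYL1 and CKM would be lower on the spike-in scale, as would the calcium buffer PVALB (0.25). The call of MYL1 was lost when any 1 array was left out (0.12 each time). Other probe sets of PVALB and MYL1 rose by 4.51 and 0.94, so the size of their rise depends on the probe set. MYBPC2, the fast myosin-binding protein, rose by 2.13 ± 0.08, and ACTN3, the fast Z-disc actinin, by 1.90 ± 0.08. Further rises of at least 2-fold were those of the Z-disc proteins MYOT (1.99) and MYOZ2 (1.77), the giant filament ruler NEB (1.19), the calcium store CASQ2 (1.47), glycogen phosphorylase PYGM (1.09), SMPX (1.38) and the atrophy-related ubiquitin ligase TRIM63 (1.28). MYOG, the transcription factor that drives myoblasts to differentiate, had 7.40, 7.31 and 7.26 in the 1dpi arrays and 5.85, 5.78 and 5.92 in the 0dpi arrays, a rise of 1.48 ± 0.06. Its groups did not overlap, which was so in 59.4% of all probe sets.

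Some genes known from smooth muscle rose, and those given here were chosen from a list by their size or p. TAGLN, an actin-binding protein of smooth muscle, had 9.22, 9.22 and 9.17 in the 1dpi arrays and 6.98, 6.97 and 7.01 in the 0dpi arrays, a rise of 2.22 ± 0.05 (4.64-fold). CNN1, a calponin of smooth muscle, rose by 1.30 ± 0.05 and its relative CNN2 by 0.91 ± 0.05. A second probe set of CNN2 did not pass the test (0.19). The list itself lay near the shares of all genes, which were 24.7% higher and 28.5% lower. Of 47 genes of actin, adhesion and cell movement 12 were higher (25.5%) and 15 lower (31.9%), with a median of -0.02.

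Motile cilia gave the most uniform rise outside muscle. Of 37 measured genes 30 were higher and 0 lower, with a median of 0.76, and 12 rose at least 2-fold. Centred on the spike-ins, 17 were higher and 13 lower, with a median of 0.22. TEKT4, a tektin that runs along the doublet microtubules of the cilium, had 6.89 to 7.02 in the 1dpi arrays and 4.73 to 4.96 in the 0dpi arrays, a rise of 2.11 ± 0.07 (4.32-fold, adjusted p = 3.93e-07). TEKT2 measured 8.47, 8.38 and 8.53 in the 1dpi arrays and 6.50, 6.38 and 6.63 in the 0dpi arrays and rose by 1.96 ± 0.08, and the other tektins TEKT1 and TEKT3 rose by 1.26 and 1.16. For all 4 the groups were apart, as they were in 59.4% of all probe sets. The dynein arm component DNALI1 rose by 1.88 ± 0.13, the axonemal dynein chains DNAH7 and DNAI1 by 1.18 and 1.21, and the radial spoke proteins RSPH9 and RSPH3 by 1.85 and 1.19. SPAG6, a protein of the central pair, rose by 1.15, ROPN1L by 1.04 and CCDC65 by 1.00. FOXJ1, the transcription factor that switches on motile cilia genes, did not pass the test, with 4.39 in 1dpi and 4.29 in 0dpi.

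Genes of the cells that line the canal were called about as often as all genes. Of 25 measured genes of ependymoglia and neural stem cells 7 were higher (28%) and 7 lower (28%), with a median of 0.00. Among all genes 24.7% were higher and 28.5% lower. GFAP was among the higher, with 10.61, 10.59 and 10.58 in the 1dpi arrays and 9.92, 9.97 and 10.03 in the 0dpi arrays, a rise of 0.62 ± 0.05. SLC1A3, a glutamate transporter of glia, rose by 0.87 ± 0.06 and FABP7, a fatty acid carrier of radial glia, by 0.81 ± 0.13, and on the spike-in scale the calls of GFAP (0.07) and FABP7 (0.26) would be lost. Among the lower were transcription factors of progenitors, with ZIC1 at a difference of -1.34 ± 0.13, HES1, the effector of Notch, at -0.88 ± 0.06 and ID3, a target of BMP, at -0.77 ± 0.06. PAX6, which marks neural progenitors, did not pass the test (0.14).

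Neuronal genes were higher. Of 46 measured, 27 were higher and 1, the granin SCG2, lower, with a median of 0.26, which becomes -0.29 with 11 higher and 27 lower on the spike-in scale. The call of SCG2 was lost without 1dpi_3 (-0.19) or 0dpi_2 (-0.24). SCG3, a granin of secretory vesicles, had 5.84, 6.01 and 6.17 in the 1dpi arrays and 3.87, 3.94 and 4.04 in the 0dpi arrays, a rise of 2.06 ± 0.09 (4.17-fold). SYT4, a synaptotagmin, rose by 1.32 ± 0.09, CRMP1, a mediator of axon guidance, by 1.22 ± 0.07 and GAP43, a growth cone protein of regrowing axons, by 1.10 ± 0.11. The microtubule proteins of neurons MAPT, STMN4, STMN3 and STMN2 rose by 1.02, 1.07, 0.96 and 0.78. Synaptic vesicle genes did not pass the test for SYP (0.14), SYT1 (0.13) and VAMP2 (-0.11), and SYT1 was near background in both groups. VAMP2, with 3.82 in 1dpi and 3.93 in 0dpi, also lay close to the brightest negative control (3.49).

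Myelin genes were higher more often than lower. Of 12 measured 7 were higher (58.3%) and 4 lower (33.3%), against 24.7% and 28.5% of all genes. The median of 0.32 becomes -0.22 on the spike-in scale. MBP, which compacts the sheath, had 11.76, 11.78 and 11.82 in the 1dpi arrays and 11.10, 11.10 and 11.15 in the 0dpi arrays, a rise of 0.67 ± 0.05. Its call and that of PMP22 would be lost on the spike-in scale. The sheath proteins GPM6B and PMP22 rose by 0.98 and 0.69, ERMN, a cytoskeletal protein of oligodendrocytes, by 1.30, and UGT8, which makes galactosylceramide, by 1.17. Second, dimmer probe sets of MBP and GPM6B rose by 0.32 and 0.22, differences that would be below 0 on the spike-in scale. MAL, a lipid raft protein of myelin and of epithelia, went the other way with 7.86, 7.97 and 7.90 in the 1dpi arrays and 9.99, 9.94 and 9.96 in the 0dpi arrays, a difference of -2.05 ± 0.05. CNP, a myelin phosphodiesterase, was lower by -1.01.

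Immediate early genes were mostly higher. Of 21 measured 16 were higher and 2 lower, with a median of 0.49 that becomes -0.06 with 7 higher and 9 lower on the spike-in scale. FOS had 10.06, 10.09 and 10.03 in the 1dpi arrays and 7.35, 7.38 and 7.48 in the 0dpi arrays, a rise of 2.65 ± 0.05 (6.29-fold, adjusted p = 4.66e-08). ZFP36, which destabilises the messages of cytokines, measured 9.25, 9.14 and 9.33 in the 1dpi arrays and 7.08, 6.83 and 7.93 in the 0dpi arrays, a rise of 1.96 ± 0.25. One 0dpi array of ZFP36 lay about 1 unit above the other two, yet the groups were apart. DUSP1, a phosphatase that switches MAP kinases off, rose by 1.70 ± 0.06, GADD45B, a stress sensor, by 1.40 ± 0.06 and EGR1 by 0.82 ± 0.05. The 2 that fell were MYC (-1.04), the growth regulator, and KLF6 (-0.62). JUN, the usual partner of FOS, did not pass the test (-0.09).

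Inflammatory genes were higher more often than lower. Of 24 measured genes of cytokine and NF-kB signalling 12 were higher (50%) and 6 lower (25%). Among all genes 24.7% were higher and 28.5% lower, so the share of falls was near that of all genes. The median was 0.25, or -0.29 on the spike-in scale. NFKBIA, which holds NF-kB in the cytoplasm and is itself switched on by it, had 10.28, 10.20 and 10.18 in the 1dpi arrays and 8.37, 8.39 and 8.44 in the 0dpi arrays, a rise of 1.82 ± 0.05 (3.54-fold). LITAF rose by 1.48 ± 0.08 at its brightest probe set and by 0.51 and 0.34 at its others, the bacterial sensor TLR2 by 1.32 ± 0.06 and SOCS1, which blocks cytokine receptors, by 0.93 ± 0.05. The 6 that fell included RELA (-0.32) and RELB (-0.79), subunits of NF-kB itself, STAT3 (-0.57) and the adaptor MYD88 (-0.51). Other probe sets of STAT3 gave -0.02 and -0.09, which did not pass the test, and -0.22, which did. A second probe set of TLR2 did not pass (-0.03).

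Genes of macrophages and neutrophils were lower more often than higher. Of 23 measured 5 were higher and 10 lower, against 24.7% and 28.5% of all genes, with a median of -0.03. CTSS, a cathepsin of antigen-presenting cells, differed by -0.79 ± 0.05 at its brightest probe set, but its other 2 probe sets were higher by 0.58 and 2.10, so its direction depends on the probe set. The 5 that were higher were the antigen presentation chaperone CD74 (1.15), the complement subunits C1QB (0.95) and C1QC (0.27), LAPTM5 (0.45) and CYBA (0.17). On the spike-in scale C1QC and CYBA would be lower and LAPTM5 would not be called. The call of CYBA was lost without 1dpi_2 or 1dpi_3 (0.16 each time). The pan-leukocyte gene PTPRC had 3.91 in 1dpi and 3.95 in 0dpi and the macrophage receptor CSF1R had 6.46 and 6.42. Neither passed the test, though a second probe set of CSF1R was lower (-0.23). PTPRC lay close to the brightest negative control (3.49), and its second probe set lay below that control (3.30 in 1dpi and 3.34 in 0dpi), so little can be read from it. Of 16 genes of the interferon response and antigen presentation 4 were higher and 9 lower (median -0.20), among them the regulators IRF8 (-0.65), IRF3 (-0.76) and the RNA editor ADAR (-0.79).

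Plasma proteins and clotting genes were higher in 11 and lower in 5 of 20 (median 0.25, or -0.30 on the spike-in scale). SERPING1, the inhibitor of the first complement protease, averaged 6.97 in 1dpi and 5.34 in 0dpi, a rise of 1.62 ± 0.05. HPX, the carrier of free haem, rose by 1.15 ± 0.05, and the terminal complement proteins C9 and C5 by 1.07 and 0.81. Red cell and haem genes were higher in 13 and lower in 1, CPOX (-0.25), of 17 measured, with a median of 0.38 that becomes -0.17 on the spike-in scale. ALAS2, the first enzyme of haem synthesis in red cells, had 10.39, 10.38 and 10.41 in the 1dpi arrays and 8.74, 8.79 and 8.80 in the 0dpi arrays, a rise of 1.62 ± 0.05 (3.07-fold). The membrane skeleton protein SPTB rose by 1.46 ± 0.06, the erythroid transcription factor NFE2 by 1.14 ± 0.06 and UROS, another enzyme of haem synthesis, by 0.94 ± 0.06. HMOX1, which breaks haem down, rose by 1.38 ± 0.05, beside PRDX2, the abundant peroxiredoxin of red cells (1.22), and SOD3 (1.12). HMOX1, PRDX2 and SOD3 were taken for their size from another list, that of oxidative stress and detoxification. Of its 36 measured members 16 were higher (44.4%) and 11 lower (30.6%), against 24.7% and 28.5% of all genes. Its median of 0.09 becomes -0.45 on the spike-in scale.

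Genes of connective tissue matrix were mostly higher. Of 36 measured genes 25 were higher and 5 lower, with a median of 0.69 (0.15 on the spike-in scale, with 17 higher and 13 lower), and 11 rose at least 2-fold. FBN1, which builds elastic microfibrils, had 9.92, 10.03 and 10.00 in the 1dpi arrays and 6.57, 6.59 and 6.68 in the 0dpi arrays, a rise of 3.37 ± 0.06 (10.4-fold), but the other 2 probe sets of FBN1 gave 0.80 and -1.43, so its direction depends on the probe set. COL5A2, a collagen that sets fibril width, measured 11.92, 11.99 and 11.99 in the 1dpi arrays and 10.34, 10.41 and 10.37 in the 0dpi arrays, a rise of 1.59 ± 0.05. The basement membrane collagens COL4A1 and COL4A2, which form 1 heterotrimer, rose by 1.50 ± 0.07 and 1.53 ± 0.06. LOXL2, which cross-links collagen, rose by 1.47 ± 0.05, fibronectin FN1 by 1.16 ± 0.05, and COL5A1, COL6A3, COL6A1, COL3A1 and POSTN by 1.02 to 1.11. A second, dimmer probe set of FN1 did not pass the test (-0.18). HAS2, a hyaluronan synthase, differed by -1.03 ± 0.08.

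Proteases that cut this matrix, and their inhibitors, were higher in 14 and lower in 3 of 24 (median 0.30, or -0.25 on the spike-in scale). MMP2, a gelatinase, had 13.51, 13.53 and 13.47 in the 1dpi arrays and 12.45, 12.40 and 12.42 in the 0dpi arrays, a rise of 1.08 ± 0.05 (0.47 at its second probe set), and TIMP1, an inhibitor of metalloproteases, gave 13.68, 13.69 and 13.66 in the 1dpi arrays and 12.64, 12.61 and 12.66 in the 0dpi arrays, a rise of 1.04 ± 0.05. In both, the groups were apart, as in 59.4% of all probe sets. MMP19 and MMP16 rose by 1.12 and 0.91. Second, dimmer probe sets of TIMP1 and MMP16 did not pass the test (0.01 and 0.04). The cathepsins CTSZ (-0.41), CTSB (-0.38) and CTSD (-0.18) were the 3 lower members, the call of CTSD being lost without 1dpi_1, 1dpi_2, 0dpi_2 or 0dpi_3 (-0.16 to -0.17). In cartilage 6 of 15 were higher and 6 lower. ACAN, the large proteoglycan of cartilage, and PRG4, the lubricant of joints, rose by 1.46 ± 0.06 and 1.29 ± 0.05, and MATN3, a cartilage matrilin, differed by -2.07 ± 0.08.

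**Figure D3:**
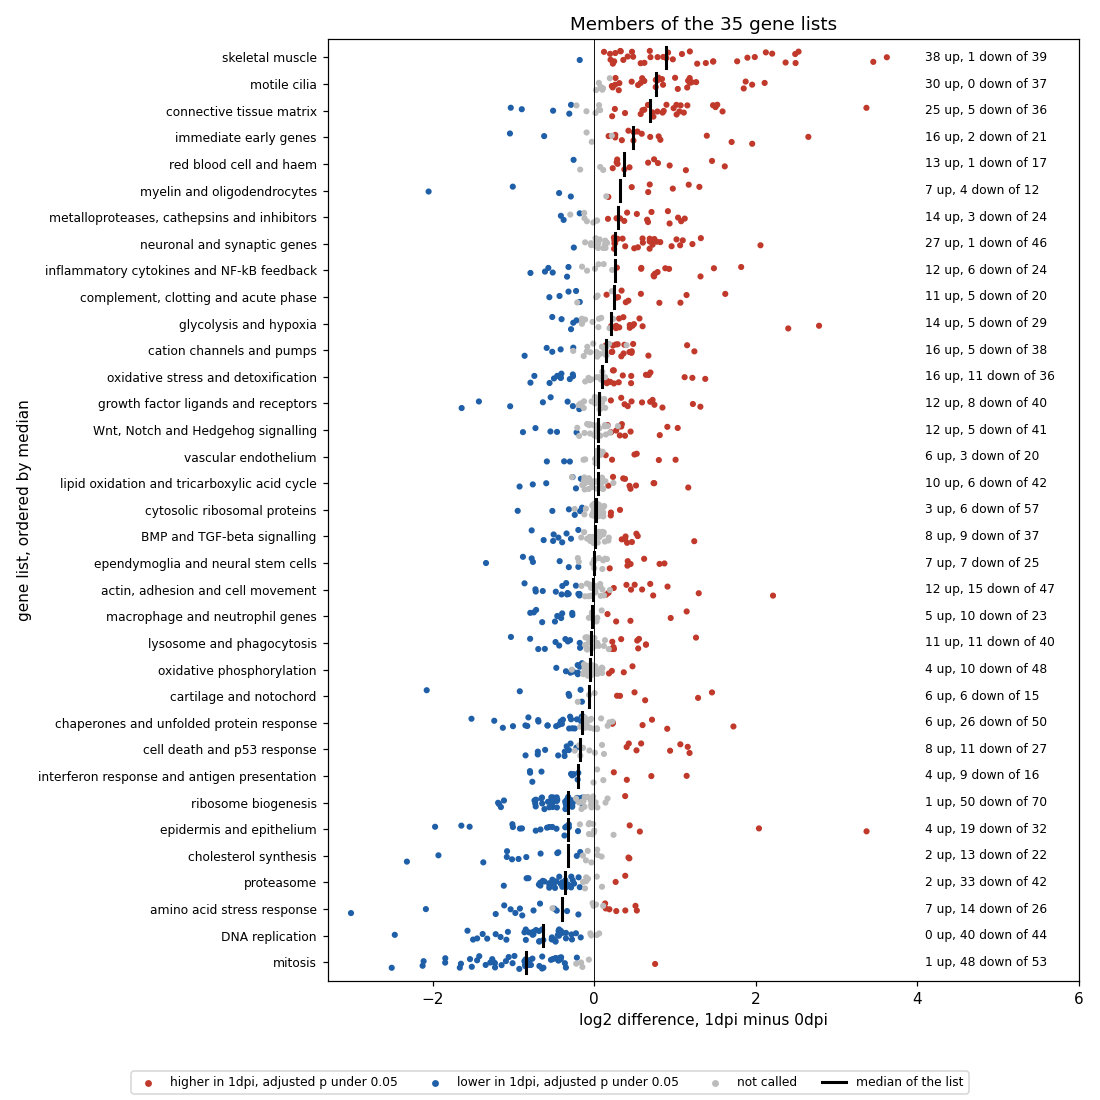
Each point is a measured member of 1 of 35 gene lists, at its log2 difference of 1dpi minus 0dpi. Red members were higher and blue members lower at an adjusted p under 0.05, grey ones were not called, and black bars are list medians, which run from 0.90 for skeletal muscle to -0.85 for mitosis. Medians between 0 and 0.55 turn negative when arrays are centred on the poly-A spike-ins.

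Genes of cell division were mostly lower. Of 44 measured genes of DNA replication 40 were lower and 0 higher, against 28.5% of all genes lower, with a median of -0.64, and of 53 mitosis genes 48 were lower and 1 higher, with a median of -0.85. The falls were larger on the spike-in scale, with medians of -1.18 and -1.39. CCNB1, the cyclin whose kinase starts mitosis, had 6.40, 6.38 and 6.52 in the 1dpi arrays and 8.93, 8.93 and 8.96 in the 0dpi arrays, a difference of -2.51 ± 0.06 (5.68-fold lower, adjusted p = 6.48e-08). TK1, which makes thymidine monophosphate for DNA synthesis, measured 5.48, 5.13 and 5.08 in the 1dpi arrays and 7.69, 7.66 and 7.75 in the 0dpi arrays, a difference of -2.47 ± 0.10. AURKA, a kinase of the spindle pole, gave 6.21, 6.21 and 6.34 in the 1dpi arrays and 8.38, 8.37 and 8.38 in the 0dpi arrays, a difference of -2.12 ± 0.05. In each of the 3 genes every 1dpi array was below every 0dpi array by more than 2 units.

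The falls included genes of several steps of the cycle. At the start of S phase the licensing factors CDC6 and CDT1 differed by -1.50 ± 0.10 and -1.22 ± 0.06, their inhibitor GMNN by -1.45 ± 0.05, the helicase subunits MCM7 and MCM3 by -1.32 ± 0.05 and -1.09 ± 0.06, and the cyclin CCNE2 by -1.38 ± 0.10. FEN1, a nuclease that processes Okazaki fragments, had a difference of -1.16 and UHRF1, which copies DNA methylation, one of -1.57. In mitosis PLK1, a kinase that drives spindle formation, had 7.47, 7.49 and 7.42 in the 1dpi arrays and 9.30, 9.29 and 9.31 in the 0dpi arrays, a difference of -1.84 ± 0.05. The cyclins CCNA2 and CCNB3 differed by -1.51 and -1.66, the checkpoint protein MAD2L1 by -1.54, and INCENP, which places the Aurora B kinase, by -1.65. Kinesins of the spindle and midzone fell too, with differences for KIF23 of -1.84 ± 0.15, for KIF20A of -1.45 ± 0.08 and for KIF11 of -1.29 ± 0.05. Of the regulators of the anaphase complex, both the activator CDC20 (-1.09) and the inhibitor FBXO5 (-2.11) were lower. The only mitosis gene that was higher was BIRC5, or survivin, with 4.90, 4.98 and 4.87 in the 1dpi arrays and 4.28, 4.14 and 4.05 in the 0dpi arrays. CDKN1B, an inhibitor of the kinases that start S phase, had 11.13, 11.25 and 11.23 in the 1dpi arrays and 10.06, 10.03 and 10.03 in the 0dpi arrays, a rise of 1.16 ± 0.05, and CCNG1 and SESN1, known as targets of p53, rose by 1.07 and 1.18. CDKN1B, CCNG1 and SESN1 were taken for their size from the list of cell death and p53 genes. Of its 27 members 8 were higher (29.6%) and 11 lower (40.7%), with a median of -0.17. Among all genes 24.7% were higher and 28.5% lower.

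Genes of ribosome biogenesis and of the proteasome were mostly lower. Of 70 measured genes of ribosome biogenesis 50 were lower and 1, RRP12, higher (0.39), with a median of -0.32. A second probe set of RRP12 was lower (-0.35), so its direction depends on the probe set. POLR1A, the largest subunit of RNA polymerase I, had 4.86, 4.90 and 5.15 in the 1dpi arrays and 6.16, 6.14 and 6.18 in the 0dpi arrays, a difference of -1.19 ± 0.08. The nucleolar proteins NOP2, NPM3 and NOLC1 differed by -1.18, -1.15 and -1.12. A second probe set of NOP2 did not pass the test (0.13). The ribosomal proteins themselves did not follow, with 6 of 57 lower, 3 higher and a median of 0.02, which becomes -0.52 on the spike-in scale. Of 42 proteasome genes 33 were lower and 2, PSMD9 (0.27) and the activator PSME4 (0.39), higher, with a median of -0.36. The fall was shared by ATPases of the base such as PSMC5, with 9.67, 9.63 and 9.66 in the 1dpi arrays and 10.50, 10.47 and 10.50 in the 0dpi arrays, and by lid subunits such as PSMD8 (-0.81), most of them by less than 2-fold.

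Chaperones were lower more often than higher. Of 50 measured 26 were lower and 6 higher, with a median of -0.15. Those of the endoplasmic reticulum were among the lower: HSPA5, its main chaperone, had 10.01, 10.05 and 10.16 in the 1dpi arrays and 11.18, 10.96 and 11.48 in the 0dpi arrays, a difference of -1.13 ± 0.12. HYOU1 differed by -1.52, with 1dpi arrays at 6.59 to 7.01 and 0dpi arrays at 7.85 to 8.73, and DNAJB9 by -1.24. HSPD1 of the mitochondrion averaged 11.07 in 1dpi and 12.08 in 0dpi. Among the 6 higher members CRYAB, the small heat shock protein of muscle and glia, had 10.57, 10.62 and 10.69 in the 1dpi arrays and 8.86, 8.91 and 8.92 in the 0dpi arrays, a rise of 1.73 ± 0.05, and cytosolic HSP90AA1 rose by 0.91 ± 0.05. The other 4 were HSPB1 (0.72), HSPB8 (0.60), XBP1 (0.23) and EIF2AK3 (0.23), and on the spike-in scale XBP1 and EIF2AK3 would be lower and HSPB8 would not be called. A second, dimmer probe set of CRYAB did not pass the test (0.11).

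The amino acid stress response, a programme that cells switch on when amino acids run short, was lower in 14 and higher in 7 of 26 (median -0.40). The pathway of serine synthesis fell at each of its 3 steps, with a difference of -0.75 ± 0.05 for PHGDH, that given above for PSAT1, and -2.08 ± 0.08 for PSPH, the phosphatase of the last step, which had 6.05, 5.95 and 5.90 in the 1dpi arrays and 7.89, 8.13 and 8.12 in the 0dpi arrays. PCK2 and GPT2, enzymes of mitochondrial metabolism, and DDIT3, a stress transcription factor, differed by -1.22, -1.11 and -1.03. Cholesterol synthesis was lower in 13 and higher in 2 of 22 (median -0.33). INSIG1, the sterol-regulated brake on the pathway, had 6.11, 6.47 and 6.42 in the 1dpi arrays and 8.62, 8.65 and 8.68 in the 0dpi arrays, a difference of -2.32 ± 0.09, and FDPS, which makes farnesyl diphosphate, gave 7.28, 7.26 and 7.28 in the 1dpi arrays and 9.14, 9.23 and 9.22 in the 0dpi arrays, a difference of -1.93 ± 0.05. HMGCS1, CYP51A1 and SQLE, 3 further enzymes, differed by -1.08, -1.08 and -1.02, and the fatty acid elongase ELOVL6 by -1.37.

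In the lists of energy metabolism few genes changed at least 2-fold. DDIT4, an inhibitor of mTOR complex 1 that hypoxia and glucocorticoids switch on, had 10.46, 10.37 and 10.21 in the 1dpi arrays and 7.51, 7.56 and 7.62 in the 0dpi arrays, a rise of 2.79 ± 0.07 (6.9-fold), and SLC2A1, the glucose transporter GLUT1, measured 11.73, 11.87 and 11.78 in the 1dpi arrays and 9.33, 9.42 and 9.41 in the 0dpi arrays, a rise of 2.40 ± 0.06 (5.29-fold). The rest of the 29 genes of glycolysis and hypoxia moved by less than 1 unit. In all, 14 were higher (48.3%) and 5 lower (17.2%), against 24.7% and 28.5% of all genes. The median was 0.21, or -0.34 on the spike-in scale. HIF1A itself was lower (-0.40). Of 48 genes of oxidative phosphorylation 4 were higher (8.33%) and 10 lower (20.8%), each by less than 0.5, with a median of -0.05. Both shares were below those of all genes, 24.7% higher and 28.5% lower. CPT1A, which admits fatty acids to the mitochondrion, rose by 1.17 ± 0.05, while a second, dimmer probe set did not pass the test (-0.26). It was taken for its size from 42 genes of lipid oxidation and the tricarboxylic acid cycle. Of these 10 were higher (23.8%) and 6 lower (14.3%), with a median of 0.04 that becomes -0.50 on the spike-in scale.

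Epithelial genes were lower in 19 and higher in 4 of 32 (median -0.33). GRHL1, a transcription factor of epidermis, had 5.38, 5.82 and 5.53 in the 1dpi arrays and 7.49, 7.54 and 7.60 in the 0dpi arrays, a difference of -1.97 ± 0.11. The tight junction protein CLDN3 differed by -1.64 ± 0.05, the splicing factor ESRP2 by -1.54 ± 0.05 and the hemidesmosome collagen COL17A1 by -1.01 ± 0.05. The adhesion molecule EPCAM did not pass the test (0.00). The 4 higher members were CDH17, REG4, a lectin of the gut (6.34, 6.54 and 6.29 in the 1dpi arrays and 4.49, 4.33 and 4.23 in the 0dpi arrays), DSC2 (0.57) and TGM1 (0.44), and on the spike-in scale neither DSC2 nor TGM1 would be called.

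Signalling lists are read against 24.7% of all genes higher and 28.5% lower. Of 40 growth factor ligands and receptors 12 were higher and 8 lower. EREG, a ligand of the epidermal growth factor receptor, had 8.10, 8.12 and 8.10 in the 1dpi arrays and 9.76, 9.77 and 9.72 in the 0dpi arrays, a difference of -1.64 ± 0.05, while another of its ligands, HBEGF, gave 9.00, 9.06 and 9.07 in the 1dpi arrays and 7.86, 7.79 and 7.82 in the 0dpi arrays, a rise of 1.22 ± 0.05. Binding proteins of insulin-like growth factors parted in the same way, IGFBP2 and IGFBP7 lower by -1.43 and -1.04 and IGFBP3 higher by 1.32. Of 37 genes of BMP and TGF-beta signalling 8 were higher and 9 lower, LTBP3, which anchors latent TGF-beta, rising by 1.24 ± 0.08 and the ligand BMP2 differing by -0.62 ± 0.09. Of 41 genes of Wnt, Notch and Hedgehog signalling 12 were higher and 5 lower. The Notch targets HEY1 and HES1 moved in opposite directions (1.04 and -0.88). Of 38 cation channels and pumps 16 were higher and 5 lower (median 0.15, or -0.40 on the spike-in scale), with CACNA1G, a calcium channel (1.15), and the cytosolic buffer CALB1 (1.24) up and the calcium release channel ITPR3 (-0.86) down.

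The ivermectin group shares its controls with this comparison, since 1dpi_IVM and 1dpi were both set against the same 3 arrays of 0dpi, so the values are given side by side with no test of their likeness. FOS averaged 10.06 in 1dpi, 6.38 in 1dpi_IVM and 7.41 in 0dpi. ACTN2 averaged 9.02 in 1dpi, 5.34 in 1dpi_IVM and 5.56 in 0dpi, and for CCNB1 the means were 6.44, 9.29 and 8.94 in the same order. CDH17 was the one of the 30 genes whose 1dpi_IVM mean, 6.64, lay nearer to 1dpi than to 0dpi. Outside those 30 genes, REG4 averaged 6.39 in 1dpi, 6.45 in 1dpi_IVM and 4.35 in 0dpi. GFAP averaged 10.59, 10.42 and 9.97 in the same order, so CDH17 was not alone in this. The median of the 15 largest rises was 2.81 for 1dpi minus 0dpi and -0.18 for 1dpi_IVM minus 0dpi, and that of the 15 largest falls was -2.18 and 0.06. These 30 genes were chosen by the size of 1dpi minus 0dpi, so their 1dpi medians are large by that choice. The 1dpi_IVM arrays had no part in the choice, so the medians of the 2 groups are not a like comparison. Skeletal muscle had medians of 0.90 and 0.00, motile cilia 0.76 and 0.14, mitosis -0.85 and 0.07, and DNA replication -0.64 and 0.17. Among all 8639 genes the 1dpi_IVM mean lay nearer to 0dpi than to 1dpi in 6989. Both groups were taken 1 day after injury, and the cause of the distance of the 1dpi arrays from the other 6 was not tested.

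**Figure D4:**
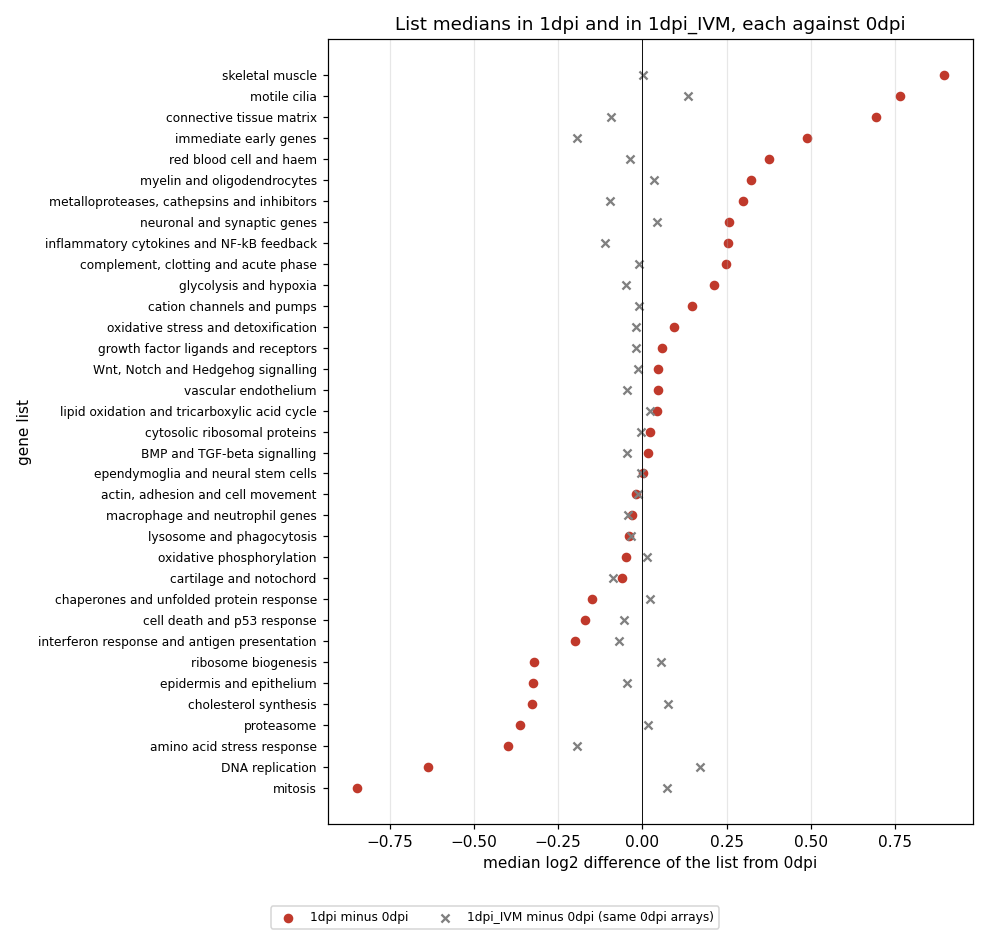
Median log2 difference from 0dpi of each of the 35 gene lists, with red circles for 1dpi minus 0dpi and grey crosses for 1dpi_IVM minus 0dpi, which uses the same 0dpi arrays. The circles run from -0.85 to 0.90, and turn negative for lists between 0 and 0.55 when arrays are centred on the poly-A spike-ins, while the crosses lie between -0.20 and 0.17.

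The most extreme differences were in probe sets that carry no gene symbol. They were called about as often as others: of 9084 such probe sets 2324 were higher (25.6%) and 2208 lower (24.3%), against 24.1% and 27.7% of all probe sets. By at least 8-fold 29 rose and 14 fell, against 10 rises and 1 fall among the 10951 with a symbol. The probe set axo03430-f_s_at had 12.23, 12.18 and 12.15 in the 1dpi arrays and 3.49, 3.76 and 3.83 in the 0dpi arrays, a difference of 8.49 ± 0.09. At the other end axo30759-f_at had 4.35, 4.40 and 4.32 in the 1dpi arrays and 10.30, 10.32 and 10.38 in the 0dpi arrays, a difference of -5.98 ± 0.05. In both, the low group lay within 1 unit of 3.49, the mean of the brightest negative control. The 1dpi_IVM arrays averaged 3.59 and 10.00 for these probe sets.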

How the data were processed

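The 9 Affymetrix arrays of axolotl spinal cord were made in 3 groups of 3. The values that the authors deposited are log2 signals made with RMA in Affymetrix Expression Console, per the labels and the methods. RMA corrects for background, forces the arrays onto 1 distribution and gives each probe set 1 value. The versions and the build behind the probes are, as far as the sources used here go, not given. Values ran from 2.65 to 14.55 with 0 missing, and no log was taken again. An array gives no depth, so precision is set by 3 arrays per group, and tests measure the spread between pools of 10 animals. The 45 control probe sets were left out, and 20035 were tested with no filter. Symbols were those of the platform annotation, which gave 10951 probe sets exactly 1 symbol, 8639 different ones in all, and gave none several. All symbols were found in the RefSeq gene table of the axolotl. A gene was read from its brightest probe set, by the mean of the 6 arrays.

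The 1dpi arrays were compared with the 0dpi arrays in R 4.3.3 with limma 3.58.1 (lmFit and eBayes without trend, 2-sided), on the 6 arrays alone. P-values were adjusted by Benjamini-Hochberg over the whole 20035, and a call needed an adjusted p below 0.05. The methods applied no false discovery rate to these arrays. The script was tested on simulated data.

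The rule for named genes took the 15 largest rises and 15 largest falls among called genes with no overlap of the groups, and from each list the called members with the smallest p (up to 4) and those changed at least 2-fold. Others are named where they spell out a small count, mark a tissue or show a member that did not pass, and were chosen after their values were seen. Of the 208 list members that the rule picks, 164 are given, and which were given was decided with their values in view. The comparison, the 35 gene lists and the markers were chosen with earlier results of these data known. Alternatives varied the arrays in the model, trend and robust fitting, a replicate block, filters on dim probe sets, the scaling, the averaging of probe sets and each array in turn.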

Additional observations from a re-analysis of the deposited data

Results flagged for a closer look

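The poly-A spike-ins, which enter none of the gene comparisons, averaged 8.08 in 1dpi and 7.54 in 0dpi, a log2 difference of 0.55. They were singled out as a signal outside the main measurement. The hybridization controls differed by 0.16 and the negative controls by 0.07 in the same direction. With 3 arrays a group, single arrays were not screened for outliers.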

How the results depend on the processing

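The 4 counts of called probe sets (higher, lower, and at least 2-fold each way) stayed within 1.5 times their values under all alternatives but one. With arrays centred on the poly-A spike-ins they became 1283, 16945, 262 and 2830, since that scale lowers every difference by 0.55. Under median centring 5536 probe sets were higher and 5019 lower, the reverse of the order in the main fit. There 52.4% rather than 46.5% of the calls were higher. When 1 array was left out, 4237 to 4552 probe sets were higher and 5002 to 5303 lower, and at least 2-fold 707 to 741 and 695 to 716. Deviations of same-numbered arrays from their group means correlated at r = 0.231, 0.0739 and 0.0734, and those of unlike-numbered arrays at -0.162 to 0.106. With so few arrays these values cannot decide whether same-numbered arrays were pairs. The numbers were not taken as pairs, and the replicate block gave 4885 higher and 5647 lower. Of 231 genes named, 191 could be tested under every alternative, and 182 of these kept their direction and side of the threshold under all but the spike-in centring. The other 40 were left out by a filter on dim probe sets, and 36 of them kept both under the alternatives they were in. MEF2C and MYL1 lost their calls under several, and MYL1 also under the replicate block (0.12, adjusted p = 0.0872 in limma).

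On the spike-in scale the sign of these list medians changed: -0.059 for immediate early genes, -0.29 for inflammatory cytokines, -0.30 for complement and clotting, -0.25 for metalloproteases and cathepsins, -0.29 for neuronal genes, -0.54 for ependymoglia, -0.22 for myelin, -0.17 for red cells, -0.50 for endothelium, -0.34 for glycolysis, -0.50 for lipid oxidation, -0.52 for cytosolic ribosomal proteins, -0.53 for BMP and TGF-beta, -0.49 for growth factors, -0.50 for Wnt, Notch and Hedgehog, -0.45 for oxidative stress and -0.40 for cation channels. The genes that changed sign there were C1QC (-0.27), CKM (-0.34), CSF1R (-0.51), CYBA (-0.38), EIF2AK3 (-0.32), EPCAM (-0.54), FOXJ1 (-0.44), LAPTM5 (-0.10), MYL1 (-0.42), PAX6 (-0.41), POMC (-0.53), PSMD9 (-0.28), PSME4 (-0.16), PVALB (-0.30), RRP12 (-0.16), SYP (-0.41), SYT1 (-0.41), TGM1 (-0.11), TNNC2 (-0.22) and XBP1 (-0.31), and the calls of DSC2, FABP7, GFAP, HSPB8, MBP and PMP22 were lost.

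With all probe sets of a gene averaged the sign changed for CTSS (0.63), MEF2C (0.0104) and RRP12 (-0.0196). It also changed for CARTPT (0.0886), CSF1R (-0.0935) and EPCAM (-0.014), which had not passed the test at their brightest probe sets. A second quantile normalization gave -0.0162 for EPCAM, -0.0135 for POMC, 0.0294 for CARTPT and 0.0187 for GAL, and median centring gave 0.0332 for CARTPT, 0.0311 for GAL, 0.0073 for PTPRC and 0.0204 for the median of the actin list. Leaving out 1 array moved EPCAM between -0.0113 and 0.0225, PTPRC between -0.0749 and 0.0347, CSF1R between -0.0011 and 0.0828, POMC between -0.0346 and 0.0724, CARTPT between -0.0353 and 0.0376, GAL between -0.1018 and 0.0843 and the BMP and TGF-beta median between -0.008 and 0.0515. Leaving out the dimmer 50% of probe sets left 15 higher motile cilia genes in place of 30, fewer members being tested. Of 92 further probe sets of the named genes 23 were not called and 4, of CTSS, FBN1 and RRP12, were called in the opposite direction. Among the 23 were ones of C1QB, CCNB3, CDH1, CYP51A1, ITPR3 and NEB, beside those given with their genes. In 6.23% of probe sets both groups lay below the brightest negative control, which limits what can be read from them, and pools of 10 animals hide the spread between animals.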

Other observations

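The precursors of peptide hormones given here are in none of the gene lists, were chosen after their values were seen and are no tally of such genes. Beside PMCH, the opioid precursor PENK averaged 8.94 in 1dpi and 6.86 in 0dpi (log2 difference 2.08 ± 0.06, SE). The substance P precursor TAC1 differed by 1.94 ± 0.07, ADCYAP1, the precursor of PACAP, by 1.50 ± 0.06, and somatostatin SST by 1.35 ± 0.07. Gastrin-releasing peptide GRP differed by 1.25 ± 0.08. In these 5 genes every 1dpi array lay above every 0dpi array, by 1.08 for GRP to 1.94 for PENK between the nearest arrays. Since the genes were chosen with these values in view, that gap is no further support. The groups did not overlap in 59.4% of all probe sets. The precursors POMC, CARTPT and GAL did not pass the test, with differences of 0.02 ± 0.07, -0.01 ± 0.06 and -0.01 ± 0.09. POMC averaged 3.34 in 1dpi and 3.33 in 0dpi, below the brightest negative control (3.49), so little can be read from it. Other, dimmer probe sets of CARTPT gave 0.22, which was called higher, and 0.05, which was not called.

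Another gene outside the lists was ARG1, an arginase of macrophages and liver, with 9.03, 9.01 and 9.12 in the 1dpi arrays and 10.39, 10.34 and 10.31 in the 0dpi arrays and a difference of -1.29 ± 0.05. It too was chosen after its values were seen. Of the dimmest 20% of probe sets 10.4% were higher in 1dpi and 6.74% lower, while in the brighter bins of 20% the shares ran between 19.1% and 32.5% higher and between 20.1% and 39.1% lower.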
